A study of Mus musculus with 4 samples.

Results

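The PTW/PP1 phosphatase complex is described here through the 6 genes that encode it, Tox4, Wdr82, Ppp1r10, Ppp1ca, Ppp1cb and Ppp1cc, in nascent RNA of mouse thymocytes with and without Tox4. The genes were taken by name from a table of 24984 genes, all 6 were found, and all 6 were among the 11625 genes with a mean of at least 1 CPM (fragments of the gene scaled to a common library total in the usual way). Nascent RNA was measured by TTchem-seq, in which cells take up 4-thiouridine for a short time and the labelled RNA is fragmented, enriched and sequenced, so that fragments fall over introns as well as exons and their number is read as transcriptional output. The labels name capture of polyadenylated RNA for the libraries where the methods name depletion of ribosomal RNA, and how this bears on the counts was not tested. The cells were double positive (DP) thymocytes, the stage of T cell development that carries both CD4 and CD8. The 2 WT libraries have the genotype Tox4;F/F, that is, both Tox4 alleles carry loxP sites and no Cre is present, and the 2 cKO libraries have the genotype Tox4;F/F;Lck+, in which Cre is driven by the proximal promoter of Lck.

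Per the study, Cre acts from the DN3 stage, before DP cells arise, and removes exons 4 to 6 of Tox4. The mice were young adult littermates on a C57BL/6 background, stated to be matched for gender, and the cells were cultured briefly before labelling. DP cells were taken from the thymus with beads against CD4, which also hold CD4 single positive cells, in the purification that the methods describe, but that purification is not named for the TTchem-seq libraries. Xist, a transcript of the inactive X chromosome, reached 172 CPM in WT replicate 1 and no more than 2.36 CPM in the others, so WT replicate 1 holds female cells that the others do not show. This goes against matching for gender across the 4 libraries, and the 2 WT libraries were not from the same cells. The study describes the replicates of its genomic assays as biological, but neither it nor the labels say whether the 2 cKO libraries came from separate mice, and a p-value measures the spread between these libraries.

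PP1 is a serine/threonine phosphatase whose catalytic subunit is encoded by 3 genes, Ppp1ca, Ppp1cb and Ppp1cc, and which acts on its substrates through regulatory subunits. In the PTW/PP1 complex the catalytic subunit is held by PNUTS, the product of Ppp1r10, which targets PP1 to chromatin, together with WDR82, a WD40 repeat protein that binds the phosphorylated tail of RNA polymerase II (Pol II), and TOX4, an HMG box protein. The complex is known to remove phosphates from the Pol II tail and from the elongation factor SPT5, and WDR82 also works in SET1 histone methyltransferase complexes.

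The exons named as deleted are shown because the count of Tox4 has to be read against them. They lie on chromosome 14 of GRCm38, plus strand, at chr14:52285660-52285902, chr14:52286729-52286989 and chr14:52287301-52287531, and are 243, 261 and 231 bases long. In the RefSeq transcript of 10 exons each of the 3 is coding throughout and starts in phase 0, so that each holds whole codons, 81, 87 and 77 in number. The capitals mark the first and the last codon of each exon.
Tox4 exon 4: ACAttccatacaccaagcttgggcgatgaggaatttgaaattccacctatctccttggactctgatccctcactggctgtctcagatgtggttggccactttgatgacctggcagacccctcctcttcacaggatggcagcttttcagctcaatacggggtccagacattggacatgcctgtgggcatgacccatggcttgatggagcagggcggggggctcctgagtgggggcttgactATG
Tox4 exon 5: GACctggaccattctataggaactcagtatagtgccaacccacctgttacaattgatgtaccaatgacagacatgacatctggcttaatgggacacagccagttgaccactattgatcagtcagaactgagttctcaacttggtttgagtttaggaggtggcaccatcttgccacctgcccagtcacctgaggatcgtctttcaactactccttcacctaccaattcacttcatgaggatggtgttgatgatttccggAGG
Tox4 exon 6: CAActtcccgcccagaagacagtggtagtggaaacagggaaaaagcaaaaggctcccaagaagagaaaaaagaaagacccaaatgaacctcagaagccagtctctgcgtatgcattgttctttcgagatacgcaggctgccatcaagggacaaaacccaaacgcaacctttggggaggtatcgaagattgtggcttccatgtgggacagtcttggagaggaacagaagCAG
Together they make up 735 of the 1860 coding bases of Tox4, or 39.5%. Joined without them, the last 15 bases of exon 3, in lower case, meet the first 15 bases of exon 7, in capitals, as follows.
Tox4 exon 3 to exon 7: ctgtcaggagccgagGTGTACAAGCGGAAG
The frame of exon 3 runs on into exon 7 at this junction, since the 245 codons left out are whole. Whether such a transcript is made was not measured, since the counts are per gene.

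The table counts fragments over the whole of a gene, from start to end. The stretch from the start of exon 4 to the end of exon 6 is 1872 bp, which is 11.4% of the 16364 bp of Tox4, and the widest stretch that could be removed without touching exons 3 and 7 is 10871 bp, or 66.4% of the gene. The positions of the loxP sites were not used here. The first exons, the promoter and the last exons lie outside either stretch, so fragments of Tox4 are counted in cKO cells also where the deletion is complete, and the count checks the labels at the level of the locus only.

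The libraries held between 38429786 and 48690591 fragments over genes. All 7 DP thymocyte markers, among them Cd4, Cd8a and Rag1, were at a mean of at least 1 CPM, and their summed level was 6644 and 7439 CPM in WT and 6288 and 5366 CPM in cKO, with both cKO sums below both WT sums. Tcf7 gave over 0.5 of each sum, at 4019 and 4236 CPM in WT and 3679 and 2919 CPM in cKO. Taken singly, Cd8a, Rag1 and Tcf7 were lower in both cKO libraries, and the genotypes overlapped for Cd4, Cd8b1, Rag2 and Cd3e. The 8 markers of mature single positive T cells were all measured, at 548 to 553 CPM summed in WT and 496 to 569 CPM in cKO. The summed level was 12.7 to 13.8 CPM in WT and 12.2 to 14.2 CPM in cKO for 6 B cell markers and 9.82 to 12.3 CPM in WT and 11.5 to 11.7 CPM in cKO for 6 myeloid markers. None of 6 erythroid or 5 thymic epithelial markers reached a mean of 1 CPM, and Psmb11 was at 0 in all 4 libraries. WT replicate 1, the library with Xist, stands apart in this transcript. What part these differences have in the results on the complex was not tested. In bulk RNA, fewer cells of a type and less RNA per cell cannot be told apart.

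Among the 6 genes, Tox4 itself had lower output in cKO and was the only one called. Ppp1r10, at 1.18 of the WT output, missed the thresholds on p and on fold, Wdr82, at 0.920 of the WT output, did not pass the test, and the 3 catalytic subunit genes differed by less than the spread between libraries. A call required an adjusted p-value under 0.05 from the DESeq2 Wald test, a change of at least 1.2-fold and a mean of at least 1 CPM. At these criteria 1 of 6 members was called, beside 3.71% of the 11625 genes in either direction, 2.14% increased and 1.57% decreased. Before adjustment, p was under 0.05 for 2 of the 6, Tox4 and Ppp1r10, beside 13.5% of all genes. The libraries of the genotypes did not overlap for 3 of the 6, Tox4 and Wdr82 with cKO below and Ppp1r10 with cKO above, beside 48.9% of all genes. With so many genes separated between 2 and 2 libraries, separation alone says little about any 1 of them. The median log2 fold change was -0.07 over the 6 genes and 0.00 over all genes.

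**Figure D1:**
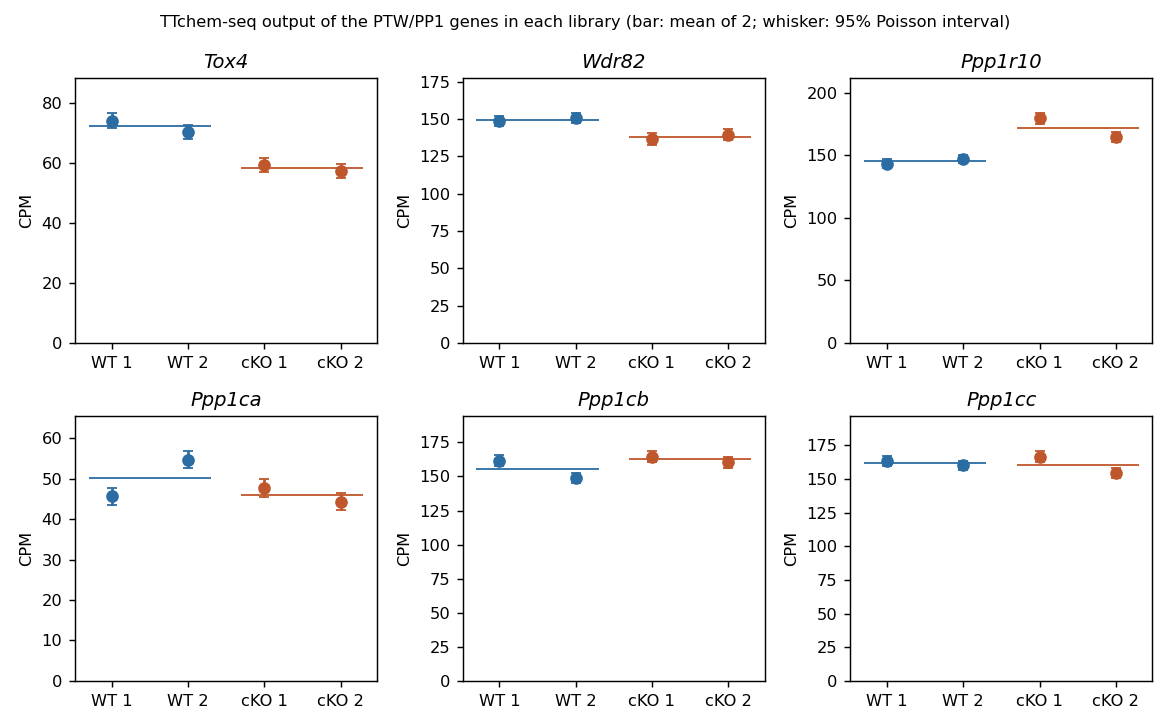
Output of each of the 6 genes in CPM (vertical axes, starting at 0) in the 2 WT libraries (blue) and the 2 cKO libraries (orange). Horizontal lines are the mean of the 2 libraries of a genotype and whiskers are 95% Poisson intervals of the fragment counts, which cover counting error only. Tox4 and Wdr82 lie lower and Ppp1r10 higher in both cKO libraries, and the libraries of the genotypes overlap for Ppp1ca, Ppp1cb and Ppp1cc.

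Tox4, the deleted gene, lies at chr14:52279146-52295509 and gave 74.04 and 70.3 CPM in WT and 59.3 and 57.2 CPM in cKO, from 3156, 3421, 2279 and 2276 fragments. Both cKO libraries lay below both WT libraries, and their 95% Poisson intervals, the highest reaching 61.8 CPM, lay below those of WT, the lowest of which began at 67.9 CPM. The intervals cover counting error only, since fragments amplified by PCR are not independent molecules. In WT the mean was 72.1 ± 2.67 CPM and in cKO 58.3 ± 1.46 CPM (SD, n = 2 each). The DESeq2 log2 fold change was -0.31 (SE 0.0998), and the adjusted p-value was 0.0453. This is 0.806 of the WT output, with a 95% interval of 0.704 to 0.923, so most of the WT output over the locus was still counted in cKO. A lower log2 fold change was found for 8.20% of the genes with a mean of at least 1 CPM.

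The call of Tox4 lay close to the threshold and depended on the test, while the size of the change did not. The adjusted p-value was 0.116 with the edgeR quasi-likelihood test and 0.121 with limma voom, so neither called any of the 6 members, beside 0.705% and 0.723% of all genes called by these tools. Before adjustment, edgeR gave p under 0.05 for 2 of the 6, again Tox4 and Ppp1r10, beside 15.7% of all genes. Left out in turn, any of the 4 libraries ended the call, with log2 fold changes from -0.34 to -0.28 and adjusted p-values from DESeq2 from 0.196, without WT replicate 2, to 0.792, without cKO replicate 2. Without WT replicate 1, the library with Xist, the log2 fold change was -0.28.

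Genes next to Tox4 were examined because they share bases with it. Mettl3, an RNA methyltransferase subunit gene, runs on the other strand and overlaps the last 668 bp of Tox4, and Rab2b, a small GTPase gene, runs on the other strand and overlaps its first 250 bp. Mettl3 was at 20.3 and 20.2 CPM in WT and 18.4 and 19.7 CPM in cKO (log2 fold change -0.09, SE 0.152). Rab2b was at 22.7 and 23.2 CPM in WT and 25.2 and 27.1 CPM in cKO (log2 fold change 0.19, SE 0.140). Neither was called, with adjusted p-values from DESeq2 of 0.876 and 0.618. The nearest genes on either side with a mean of at least 1 CPM and no shared bases, here called its neighbours, were Chd8, a chromatin remodeller gene, at a log2 fold change of 0.04 (SE 0.0829), and Sall2, at -0.06 (SE 0.150). Neither was called. The libraries mark the strand, but whether the count used it is not stated. Tox4, Mettl3 and Rab2b had whole-number counts in every library, as had Ppp1ca and Rad9a, which also overlap on opposite strands. Ppp1r10 and Mir1894, a microRNA gene inside it on the same strand, had fractional counts, 6107.5 and 216.5 in WT replicate 1. Shared fragments were thus split on the same strand and not seen to be split between strands, as in a count that uses strand. Strand use was not tested from reads.

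Wdr82, whose product binds the Pol II tail, lies at chr9:106170929-106191706 on the plus strand. It was counted at 149 and 151 CPM in WT and at 137 and 139 CPM in cKO. Both cKO libraries lay below both WT libraries, and the values within a genotype were close, with a mean of 149.6 ± 1.38 CPM for WT and 137.9 ± 1.94 CPM for cKO (SD, n = 2 each). The log2 fold change was -0.12 (SE 0.0818), and the adjusted p from DESeq2 was 0.567, and its 95% interval ran from 0.823 to 1.03 of the WT output. The SE rests on a dispersion shared across genes of similar level, so it is wider than the spread of these 4 values alone. The direction was the same without each library in turn, from -0.14 to -0.10. The neighbours Glyctk, a glycerate kinase gene, and Ppm1m, a phosphatase gene, were not called, with log2 fold changes of -0.10 (SE 0.363) and -0.31 (SE 0.430). Ppm1m had no adjusted p-value from DESeq2, so it could not be called.

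Ppp1r10, which encodes the scaffold PNUTS, lies at chr17:35917196-35932283 on the plus strand. It was counted at 143 and 147 CPM in WT and at 179.6 and 165 CPM in cKO. Both cKO values were above both of WT, with a mean of 145 ± 2.62 CPM for WT and 172 ± 10.6 CPM for cKO (SD, n = 2 each), and the cKO libraries differed more from each other than the WT libraries did. The log2 fold change was 0.24 (SE 0.0844), which is 1.18 of the WT output with a 95% interval of 1.06 to 1.33. The unadjusted p-value was 0.00402 and the adjusted p from DESeq2 over all genes was 0.0794, so Ppp1r10 met neither the threshold on p nor that on fold. With edgeR and limma voom the adjusted p-values were 0.165 and 0.163. Leaving out each library in turn gave log2 fold changes from 0.19, without cKO replicate 1, to 0.30, without cKO replicate 2. Its neighbours Mrps18b, a mitochondrial ribosome gene, and Abcf1, a translation factor gene, had log2 fold changes of -0.09 (SE 0.204) and -0.17 (SE 0.110) and were not called.

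Tox4 and Ppp1r10 thus stood on opposite sides of WT, and their ratio within a library does not depend on how libraries are scaled to each other. Per kb of gene, Ppp1r10 had 2.10 and 2.27 times the output of Tox4 in WT and 3.28 and 3.12 times in cKO. The length of Tox4 was taken as 16364 bp in cKO also, although at least the stretch of exons 4 to 6, 11.4% of the gene, is removed there. The cKO ratios were not corrected for the deleted stretch, and its part in them was not tested. The mean ratio was 2.18 ± 0.120 (SD, n = 2) in WT and 3.20 ± 0.117 (SD, n = 2) in cKO, a difference of 0.55 on the log2 scale. Both cKO ratios lay above both WT ratios. The two-sided exact permutation test gave p = 0.333, the smallest value that 2 against 2 libraries allow. The pair was chosen after the changes of both genes were seen, so the ratio is a description.

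A second measure within Ppp1r10 came from a microRNA gene that lies in it, and was chosen after the values had been seen. Mir1894 lies at chr17:35917889-35917969 on the same strand, in intron 1 of Ppp1r10, from 693 to 773 bp after the start of the gene, and the table splits a fragment that touches both genes between them. Its sequence is given because it is the only window inside a member, near the start of the gene, whose fragments can be read separately. The capitals mark the 2 mature microRNAs, as given by RefSeq for GRCm38.
Mir1894 window: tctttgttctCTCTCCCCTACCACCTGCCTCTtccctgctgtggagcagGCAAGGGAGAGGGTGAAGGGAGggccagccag
With each shared fragment taken to be split equally between Mir1894 and Ppp1r10, 433 and 467 fragments in WT and 343 and 312 fragments in cKO touched the window. They made up 6.85% and 6.32% of the fragments of Ppp1r10 in WT, with 95% Wilson intervals of 6.25% to 7.50% and 5.79% to 6.90%. In cKO they made up 4.85% and 4.66%, with intervals of 4.37% to 5.38% and 4.18% to 5.19%, so the counting intervals of the genotypes did not overlap.

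The window thus held a smaller share of the gene's fragments in both cKO libraries, 4.75% ± 0.137 (SD, n = 2) against 6.58% ± 0.373 (SD, n = 2) in WT, while the count over the whole gene was higher. The difference of -1.83 percentage points rests on the assumed equal split, and it is -0.92 with the fragments listed for Mir1894 taken as they stand. The exact permutation p was 0.333, again the smallest the design allows. Among 132 genes of at most 200 bp that lie inside 1 gene of the same strand, with at least 50 such fragments in every library, the shares of the genotypes did not overlap for 39.4%. Fragments touching the window, per kb of window, were 12.8 and 11.8 times those of the whole gene in WT and 9.03 and 8.67 times in cKO. Fragments that reach over its edges are counted in full, so this ratio would exceed 1 even at uniform coverage. It is not a density per base. The fragments listed for Mir1894 itself gave a log2 fold change of -0.24 (SE 0.294), and the adjusted p from DESeq2 was 0.816. With these fragments put back into Ppp1r10, its log2 fold change was 0.23 and its adjusted p-value 0.107. Wdr82 holds a microRNA gene too, Mirlet7g in intron 2, but there only 19 to 22 fragments in each library touched the window, less than 0.40% of those of Wdr82.

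**Figure D2:**
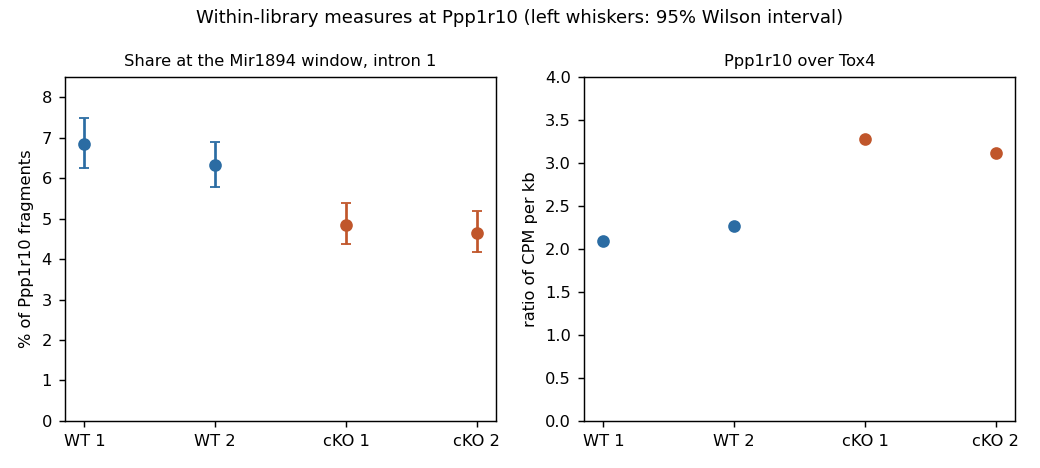
Left, fragments that touch the Mir1894 window in intron 1 of Ppp1r10, in percent of the fragments of Ppp1r10 (vertical axis), for each library, with 95% Wilson intervals for counting error. Right, the ratio of output per kb of Ppp1r10 to that of Tox4 in the same libraries, with the full length of Tox4 used in both genotypes. The share at the window lies between 6.32% and 6.85% in WT and between 4.66% and 4.85% in cKO, and the ratio between 2.10 and 2.27 in WT and between 3.12 and 3.28 in cKO.

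The 3 catalytic subunit genes encode closely related proteins, so their sequences were compared before their counts were read. Their coding sequences are 993, 984 and 972 bases long in Ppp1ca, Ppp1cb and Ppp1cc. In global alignments 75.2% of paired bases were identical between Ppp1ca and Ppp1cb, 79.5% between Ppp1ca and Ppp1cc and 75.9% between Ppp1cb and Ppp1cc. The longest run of identical coding bases was 44, between Ppp1ca and Ppp1cc, and it was 20 and 23 in the other pairs, so a longer run of coding bases matches at most 1 of the genes exactly. Introns, over which fragments were counted too, were not aligned. The last 60 coding bases are shown because the isoforms are known to differ most at their ends. The capitals mark the stop codon, and the stretches lie at chr19:4195033-4195092, chr5:32490999-32491058 and chr5:122174085-122174144 of GRCm38, all on the plus strand.
Ppp1ca: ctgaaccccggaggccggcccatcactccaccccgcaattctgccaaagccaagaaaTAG
Ppp1cb: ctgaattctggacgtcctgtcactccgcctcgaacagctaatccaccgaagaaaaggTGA
Ppp1cc: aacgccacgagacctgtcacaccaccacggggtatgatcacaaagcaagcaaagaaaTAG

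Ppp1ca, the gene of the alpha isoform at chr19:4192174-4195419, was counted at 45.6 and 54.7 CPM in WT and at 47.6 and 44.2 CPM in cKO. WT replicate 2 was the highest library and the other 3 lay between 44.2 and 47.6 CPM, so the genotypes overlapped. The log2 fold change was -0.13 (SE 0.125), and the adjusted p from DESeq2 was 0.740. Without WT replicate 2 it was 0.01, the other sign, and without WT replicate 1 it was -0.26, so a single library decides this value. Ppp1ca shares its last 222 bp with Rad9a, a DNA damage checkpoint gene on the other strand, which was at 29.2 and 27.8 CPM in WT and 27.8 and 26.2 CPM in cKO (log2 fold change -0.08, SE 0.133). Its neighbours Tbc1d10c, at a log2 fold change of -0.10 (SE 0.0963), and Gm45928, at -0.27 (SE 0.305), were not called.

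Ppp1cb, the gene of the beta isoform at chr5:32458970-32493712, was counted at 162 and 149 CPM in WT and at 165 and 160.4 CPM in cKO. WT replicate 1 fell between the cKO libraries. The log2 fold change was 0.06 (SE 0.0834), and the adjusted p from DESeq2 was 0.831. Leaving out WT replicate 1 gave 0.11 and leaving out WT replicate 2 gave 0.0113. Ppp1cc, the gene of the gamma isoform at chr5:122158275-122175273, was counted at 163 and 160.1 CPM in WT and at 167 and 154 CPM in cKO, with the WT libraries between the cKO libraries. Its log2 fold change was -0.01 (SE 0.0827), and the adjusted p from DESeq2 was 0.979. The 95% intervals were 0.933 to 1.17 of the WT output for Ppp1cb and 0.886 to 1.11 for Ppp1cc, both inside the 1.2-fold that a call requires. For Ppp1ca the interval, 0.771 to 1.08, reached past it on the side of lower output.

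On the same chromosome as both of these genes, the nearest gene of at least 1 CPM before Ppp1cb was Fosl2, an AP-1 transcription factor gene, although 301130 bp away. Fosl2 was called increased, at 83.8 and 99.9 CPM in WT and 120.4 and 139 CPM in cKO (log2 fold change 0.49, SE 0.111, adjusted p from DESeq2 0.000793), but not with edgeR, where the adjusted p-value was 0.0959, nor without WT replicate 1 or cKO replicate 2. The other neighbours were not called. They were Yes1, a Src family kinase gene, at a log2 fold change of 0.38 (SE 0.354), Hvcn1, a proton channel gene, at -0.23 (SE 0.238), and Ccdc63, at 1.35 (SE 0.626) from 26 to 85 fragments a library. Ccdc63 had an unadjusted p from DESeq2 of 0.0311 but no adjusted p-value, so it could not be called.

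**Figure D3:**
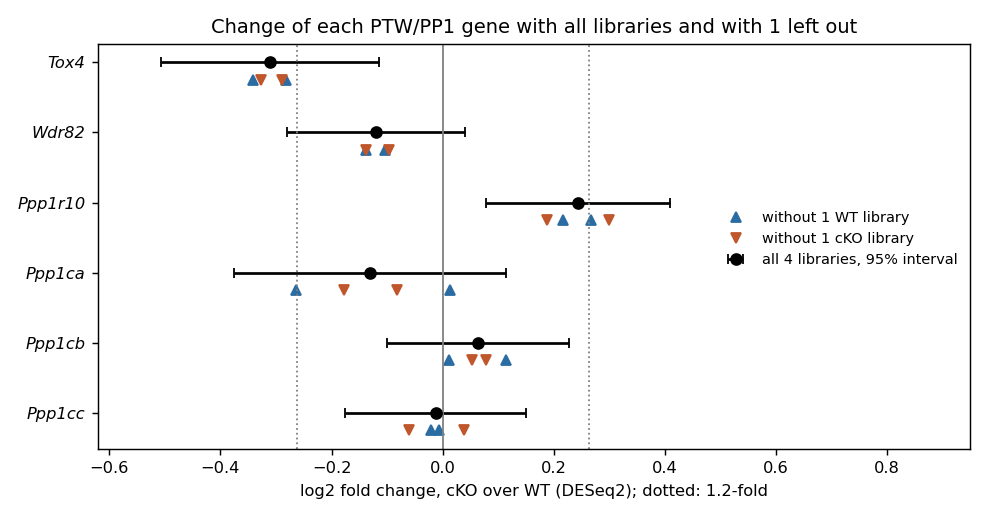
DESeq2 log2 fold change of cKO over WT (horizontal axis) for the 6 genes, with all 4 libraries and its 95% interval (black), without 1 WT library (blue) and without 1 cKO library (orange). Dotted lines mark 1.2-fold. Tox4 and Ppp1r10 keep their side of 0 whichever library is left out, at -0.34 to -0.28 and 0.19 to 0.30, and Ppp1ca and Ppp1cc cross it.

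Levels were compared between the genes per kb of gene, and the order depends on this unit. Ppp1ca, the shortest gene with 3246 bp, had the highest output per kb, at 15.5 ± 1.99 CPM per kb in WT and 14.2 ± 0.747 CPM per kb in cKO (SD, n = 2 each). Ppp1r10 and Ppp1cc followed, with means over all 4 libraries of 10.5 and 9.48 CPM per kb, and their libraries overlapped, from 9.50 to 11.9 and from 9.08 to 9.81 CPM per kb. Wdr82 was next at 6.92 CPM per kb. Ppp1cb, the longest gene with 34743 bp, and Tox4 were lowest, at 4.57 and 3.99 CPM per kb, and their libraries overlapped too. For Tox4 the full 16364 bp were used in cKO also, without correction for the deleted stretch, so its place in cKO depends on that length. Ppp1ca was above Ppp1r10, Ppp1cc above Wdr82 and Wdr82 above Ppp1cb in every library, with no overlap. Every member was above the median of 1.46 CPM per kb over the 11625 genes, from the 80.7th percentile for Tox4 to the 96.4th for Ppp1ca.

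**Figure D4:**
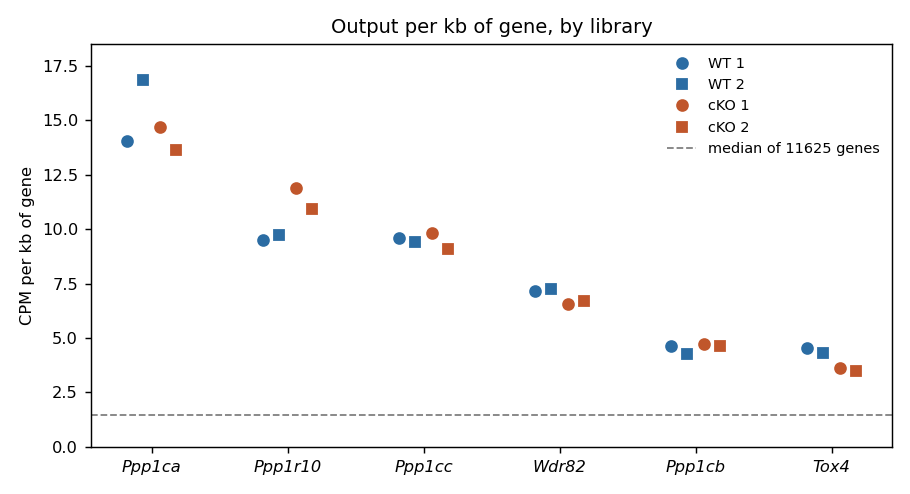
Output per kb of gene (vertical axis, CPM per kb, starting at 0) of the 6 genes in each library, ordered by mean. Circles and squares are replicates 1 and 2, blue is WT and orange is cKO, and the dashed line is the median of 11625 genes at 1.46 CPM per kb. All 24 values lie above that line. Tox4 is the lowest gene in cKO when its full length is used, with the deleted stretch included.

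Per kb, Ppp1ca gave the largest part of the output of the catalytic subunit genes. Its share of the summed output per kb was 49.6% and 55.2% in WT and 50.2% and 49.9% in cKO. Ppp1cc gave 33.9% and 30.8% in WT and 33.6% and 33.2% in cKO, and Ppp1cb gave 16.4% and 14.02% in WT and 16.2% and 16.9% in cKO. WT replicate 2 stood apart from the other 3 libraries in all of these shares. The mean shares differed between the genotypes by -2.36, 1.03 and 1.33 percentage points for Ppp1ca, Ppp1cc and Ppp1cb, with exact permutation p-values of 1, 1 and 0.667, where 0.333 is the smallest possible. A single WT library decided the size of these differences, which were -5.12, 2.59 and 2.53 without WT replicate 1 and 0.41, -0.53 and 0.12 without WT replicate 2, in the same order. The summed output per kb of the 3 genes was 28.3 and 30.6 CPM per kb in WT and 29.2 and 27.3 CPM per kb in cKO, which overlapped (exact permutation p = 0.667). CPM not divided by length put Ppp1cb and Ppp1cc level instead, at 40.9% to 44.7% and 43.0% to 44.1%, with Ppp1ca at 12.3% to 15.0%, so the order of the isoforms depends on the unit.

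The genes most like Tox4 over the 4 libraries were found by the distance between log2(CPM + 0.5) values centred on each gene's mean. The 5 nearest of 11624 other genes were Adrm1, a proteasome ubiquitin receptor gene, Paqr8, a progestin receptor gene, Fasn, the fatty acid synthase gene, Arl4d, a small GTPase gene, and Faah, the fatty acid amide hydrolase gene, at distances of 0.00834 to 0.0260. They lie on chromosomes 2, 1, 11, 11 and 4, not on that of Tox4. Fasn, at 128 and 122 CPM in WT and 103 and 98.3 CPM in cKO, and Faah, at 118 and 111 CPM in WT and 94.7 and 89.3 CPM in cKO, were called decreased, with adjusted p-values from DESeq2 of 0.0130 and 0.0141. Neither call was kept by edgeR, with adjusted p-values of 0.0895 and 0.0920, nor without any 1 of the libraries. Of the complex, Wdr82 was nearest, at rank 1380 and a distance of 0.208, and Ppp1r10 farthest, at rank 9229 and 0.558. With 4 libraries many genes share a pattern, and likeness was used for description only.

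Other phosphatase and Pol II genes were looked at through 4 lists, to set the complex among the genes it works with. Of the genes measured at a mean of at least 1 CPM, 28 of 35 other PP1 regulatory subunits, all 15 other Pol II phosphatase genes, all 12 genes of Pol II, SPT5 and their kinases and all 11 other partners of WDR82, 2 were called, both PP1 regulatory subunits and both increased. This is 3.03% of the 66 genes of the 4 lists, beside 3.71% of all genes. The median log2 fold changes of the lists were 0.03, -0.02, 0.03 and 0.05, beside 0.00 over all genes, and 17 of 28, 6 of 15, 8 of 12 and 7 of 11 genes were above 0, beside 5837 of 11625. Before adjustment, p was under 0.05 for 7 of 28, 1 of 15, 3 of 12 and 1 of 11 genes, beside 13.5% of all genes, and the genotypes did not overlap for 14, 4, 8 and 6 of them, beside 48.9% of all genes.

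Ppp1r16b, which encodes TIMAP, a membrane-bound PP1 subunit, was at 1787 and 1788 CPM in WT and 2250.4 and 2175 CPM in cKO. Both cKO libraries were higher (log2 fold change 0.30, SE 0.0653, adjusted p from DESeq2 0.000294). Rrp1b, whose product takes PP1 to the nucleolus, was at 12.9 and 14.2 CPM in WT and 19.6 and 19.9 CPM in cKO (log2 fold change 0.54, SE 0.165, adjusted p from DESeq2 0.0279). With edgeR neither was called, at adjusted p-values of 0.0940 and 0.111. Leaving out either cKO library ended the call of Ppp1r16b, and leaving out any 1 of the 4 libraries ended that of Rrp1b. At the other end of the list, Ppp1r15a, whose product GADD34 takes PP1 to eIF2 alpha, was at 61.8 CPM in both WT libraries and 53.8 and 45.4 CPM in cKO (log2 fold change -0.32, SE 0.115, adjusted p from DESeq2 0.0932), and Ppp1r13l was at -0.35 (SE 0.557). Mki67, a proliferation marker that binds PP1, varied more between replicates than between genotypes, from 100.03 to 184 CPM in WT and 169 to 242 CPM in cKO.

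Among the other Pol II phosphatases, Ctdsp2, a small phosphatase of the Pol II tail, was at 371 CPM in both WT libraries and 327 and 297 CPM in cKO. Its adjusted p from DESeq2 was 0.0309, but its change, a log2 fold change of -0.25 (SE 0.0774), was under 1.2-fold, so it was not called. Ppp2r1a, the scaffold of PP2A, was at a log2 fold change of -0.15 (SE 0.0872), and Ctdspl2 and Rprd1a, the highest of the list, were at 0.16 (SE 0.0905) and 0.15 (SE 0.0967).

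Among the substrates and kinases, Supt5, which encodes SPT5, was at 154 and 140.2 CPM in WT and 122 and 127 CPM in cKO (log2 fold change -0.24, SE 0.0879, adjusted p from DESeq2 0.102). Its partner gene Supt4a was at -0.20 (SE 0.117). Cdk12, a Pol II tail kinase gene, was at 123 and 120.1 CPM in WT and 143 and 139 CPM in cKO (log2 fold change 0.21, SE 0.0829, adjusted p from DESeq2 0.149), and Ccnh, the cyclin of the TFIIH kinase, was at 0.19 (SE 0.159). Supt5 was lower and Cdk12 higher in both cKO libraries, but neither passed the test.

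Among the partners of WDR82, Zc3h4, which works with WDR82 outside the SET1 complexes, had the highest log2 fold change, 0.23 (SE 0.101, adjusted p from DESeq2 0.226), at 95.9 and 112 CPM in WT and 126 and 118 CPM in cKO. Dpy30, a core subunit of the methyltransferase complexes, was at 0.21 (SE 0.132). Setd1b, a SET1 catalytic subunit gene, was at -0.12 (SE 0.0922) and Bod1 at -0.14 (SE 0.150). None of the 11 partners was called by DESeq2, beside 3.71% of all genes.

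**Figure D5:**
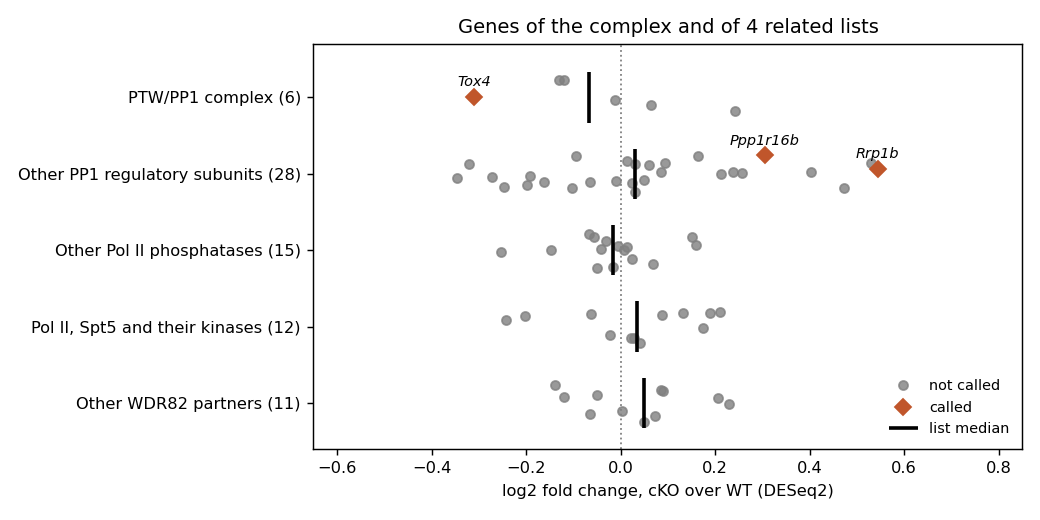
DESeq2 log2 fold change of cKO over WT (horizontal axis) for the genes of the complex and of 4 related lists, with the number of genes at a mean of at least 1 CPM in brackets. Orange diamonds are called genes, grey points are not called, and black bars are list medians, which lie between -0.07 and 0.05. The vertical position within a list has no meaning, and the called genes are Tox4, Ppp1r16b and Rrp1b.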

How the data were processed

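TTchem-seq libraries of 2 WT and 2 cKO samples were grouped by their titles. The authors filtered reads with fastp 0.13.1 and aligned them to mm10 with STAR 2.7.9a, and the submitters' processing notes also name featureCounts 1.6.1. The methods take gene counts from STAR, which counts over exons. The deposited table instead held expected counts, fragments per gene over its whole interval, introns included, with 8.61% fractional values, and the deposited gene length was the union of the transcript intervals. How fractions were assigned, whether strand was used and whether duplicates were removed is not given in the sources used here. Spike-in scaling was not applied.

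Counts were rounded and fitted across all genes with DESeq2 1.42.0, as the study's methods state (R 4.3.3, default size factors, Benjamini-Hochberg adjustment, 10624 genes with an adjusted p). Alternatives used edgeR 4.0.16, limma 3.58.1, other size factors, a CPM filter, a replicate block and each library left out. Of the expected counts, CPM and CPM per kb used the unrounded values, the table totals and the deposited lengths. Sequences came from the RefSeq GRCm38 genome. Procedures were tested on simulated data. Tables and figures were made in Python 3.11.15 with scipy 1.17.1, numpy 2.4.6, pandas 2.3.3 and matplotlib 3.10.9.

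The 6 members, the lists, the tests and the rule for named genes were chosen with earlier results of these data known. The rule took the members, every called gene of the lists with the 2 highest and 2 lowest of each, overlapping genes and the nearest measured gene on either side, and the 5 genes most like Tox4. Of the DP thymocyte markers, 1 is not reported here and was left out of their sum.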

Additional observations from a re-analysis of the deposited data

How the results depend on the processing

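No alternative moved a log2 fold change of Tox4, Wdr82, Ppp1r10 or Ppp1cb across 0, and with all 4 libraries none moved that of any member by more than 0.02. The call of Tox4 was kept with TMM factors and when genes under 1 CPM in any library were left out first. It was lost, at log2 fold changes of -0.31, with edgeR (adjusted p 0.116), limma voom (-0.31, 0.121), total count factors (-0.31, 0.0511), independent filtering off (-0.31, 0.0821), the replicate block in DESeq2 (-0.31, 0.361) and the replicate block in edgeR (-0.31, 0.13), and without any 1 library (-0.34 to -0.28). Under each of these, and with the fold raised to 1.5, 0 members were called, against 1. The log2 fold change had the opposite sign for Ppp1ca without WT replicate 2, 0.0135 (range without 1 library -0.265 to 0.0135), and for Ppp1cc without cKO replicate 2, 0.0376 (range -0.0612 to 0.0376). No pairing by replicate number was seen over all genes (correlation of deviations -0.03 over 11625 genes), but this cannot exclude a shared batch. Rn45s, the ribosomal RNA precursor gene, held 2.71% and 2.44% of fragments in replicate 1 of WT and cKO. In replicate 2 it held 4.30% and 4.05%. Whether the numbers mark a batch was not tested further, and the block is given only here.

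Increased and decreased genes numbered 249 and 182 in all. They were 65 and 17 with edgeR, 64 and 20 with limma voom, 121 and 72 with the replicate block in DESeq2, 87 and 44 with the replicate block in edgeR, 106 and 44 with the fold raised to 1.5, and 61 to 320 and 28 to 126 without 1 library. Of the 4 related lists, 2 genes were called, 0 with edgeR, limma voom or the replicate block in edgeR, 1 with independent filtering off or the replicate block in DESeq2, and 0 to 3 without 1 library. The medians of the lists of other PP1 regulatory subunits, other Pol II phosphatases and other WDR82 partners crossed 0 in some setting, from -0.05 to 0.09 over the 3. The shares of the catalytic subunits changed with the unit. Without 1 library their cKO minus WT differences ranged from -5.12 to 0.41 for Ppp1ca, 0.12 to 2.53 for Ppp1cb and -0.53 to 2.59 for Ppp1cc, and the difference for Ppp1cc was -0.54 undivided. The difference at the Mir1894 window stayed between -2.09 and -1.57 percentage points without 1 library and was -0.92 when its fragments were not doubled for the assumed equal split. These 2 alternatives, like those for the lists, for the ratio of Ppp1r10 to Tox4, for called genes outside the complex and for adding the fragments back, were chosen after the data had been seen. With 3 libraries the lone library of a genotype is assumed to vary like the pair. With 2 libraries a genotype no exact test over libraries can go below 0.333, and the yeast spike-in was not used, so a change common to all genes would not be seen.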
